A study of Mus musculus with 6 samples.

Results

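Transcripts of 10 genes whose products are used to sort or to mark mouse hematopoietic stem cells (HSCs) were compared between *Irf1-/-* and WT HSCs. The members were the rows of a normalized gene count table whose symbol was *Slamf1*, *Cd48*, *Cd34*, *Ly6a*, *Procr*, *Esam*, *Cd27*, *Thy1*, *Tek*, or *Fgd5*, that is, surface proteins of HSC gates and 1 reporter gene, with cytokine receptors left aside. All 10 were present among the 26264 genes of the table, and all 10 passed the filter on low values. The libraries came from bone marrow HSCs of untreated 8-week-old female mice, with 1 library for each of 3 mice per genotype. The *Irf1-/-* mice (B6.129S2-Irf1tm1Mak/J) lack IRF1 in every tissue, a DNA-binding factor that interferons induce, and the WT mice were C57Bl/6. HSCs had been sorted as lineage-negative cells positive for SCA-1, KIT, and CD150 and negative for CD48. The libraries carry the numbers 2, 3, and 4 in each genotype, and between 43138521 and 59658080 reads were counted on genes in each. The knockout allele was made in 129S2 cells, so that a difference caused by 129S2 sequence kept near the allele and one caused by the loss of IRF1 cannot be told apart. None of the 10 genes (0) lies on the chromosome of *Irf1* in the RefSeq annotation (GRCm38.p6).

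HSCs are rare cells that are recognized by combinations of surface proteins, none of which is specific to them alone. In the SLAM scheme, HSCs carry CD150 and lack CD48, whereas SCA-1 and KIT separate stem cells and multipotent progenitors from committed progenitors. Further proteins divide this population: CD34 is low on the most quiescent HSCs of adult mice, and the endothelial protein C receptor (EPCR), ESAM, and TIE2 are shared with endothelial cells. Such proteins are read by antibodies, whereas the values here are transcripts, and protein levels were not analysed here.

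The label of the knockout was checked first. *Irf1* itself had normalized read counts (reads divided by a size factor of the library) of 10122, 11120, and 12057 in WT libraries 2, 3, and 4 and of 9267, 9524, and 9287 in *Irf1-/-* libraries 2, 3, and 4. Every *Irf1-/-* library was below every WT library, but the gene was still counted at 84.3% of the WT mean, and the difference of −0.24 ± 0.09 (SE) on the log2 scale did not pass the test (adjusted *P* = 0.170, limma). A gene total does not separate reads inside the deleted part of the gene from reads outside it, so the count is a weak check of genotype. *Gbp2*, an interferon-induced GTPase gene, gave a clearer one, with 4379, 4209, and 4187 in WT and 1653, 1878, and 1847 in *Irf1-/-* libraries (−1.25 ± 0.09, adjusted *P* = 3.01e-06). *Psmb9*, which encodes an immunoproteasome subunit, was at 9553, 10164, and 9865 in WT and at 4825, 4948, and 5257 in *Irf1-/-* libraries (−0.98 ± 0.08, adjusted *P* = 9.98e-06). The 10 interferon targets used as this check, *Irf1* among them, included 8 that fell, and all 10 had their *Irf1-/-* libraries below their WT libraries.

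A gene was said to pass the test at an adjusted *P* under 0.05, and to be called if its absolute log2 fold change was also above 0.58. Of the 10 members, 1 was called higher in *Irf1-/-* HSCs (*Fgd5*), against 0.96% of the 17404 genes tested. Passing the test were 2 members that rose (*Fgd5* and *Procr*) and 1 that fell (*Ly6a*), against 1.73% and 1.49% of all genes. In 5 members all 3 *Irf1-/-* libraries lay above all 3 WT libraries (*Slamf1*, *Procr*, *Esam*, *Tek*, and *Fgd5*), against 10.6% of all genes, and in 1 (*Ly6a*) they lay below, against 9.27%. The median log2 fold change of the 10 members was 0.18, beside −0.0028 over all genes tested. These are bulk libraries, in which fewer cells of a type and less RNA per cell cannot be told apart. Without the trend of variance on abundance in the limma fit, no member passed (0 of 10, with 40 genes called in place of 333), and *Fgd5* was nearest to the threshold (adjusted *P* = 0.0511); of the other genes that passed and are named here, *Gbp2*, *Psmb9*, *Slamf8*, and *Nfil3* still passed in that fit. Without WT library 2, *Procr* was called as well (log2 fold change 0.5803), which makes 2 members.

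**Figure D1:**
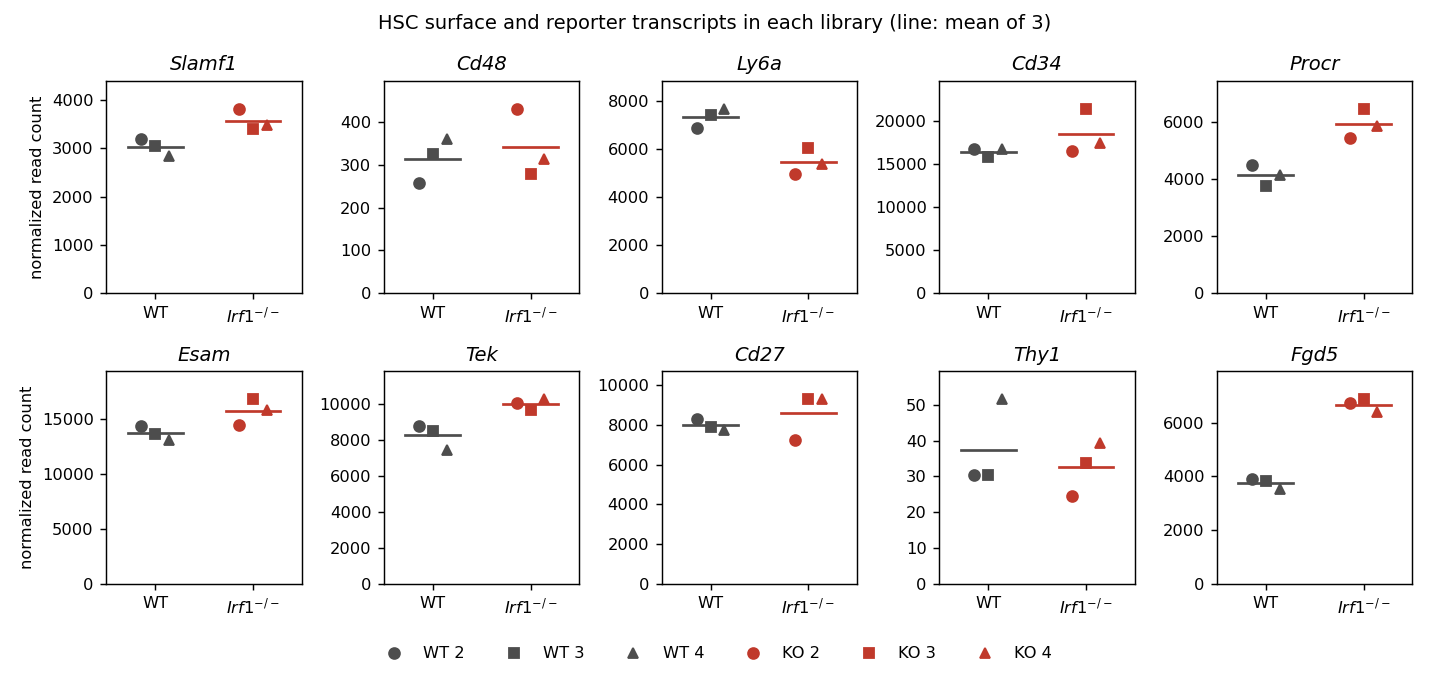
Normalized read count of each of the 10 transcripts (y axis, from 0) in the 3 WT and 3 *Irf1-/-* libraries (x axis), with 1 symbol per library and a line at the mean of 3. The *Fgd5* counts lie between 3522 and 3918 in WT and between 6387 and 6881 in *Irf1-/-* libraries, and *Ly6a* is the member whose *Irf1-/-* libraries all lie below WT.

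Among the antigens of the gate, *Slamf1* encodes CD150, a homophilic receptor of the SLAM family. Its normalized read counts were 3198, 3052, and 2848 in WT libraries 2, 3, and 4 and 3823, 3412, and 3481 in the *Irf1-/-* libraries. The lowest *Irf1-/-* library was above the highest WT library, with a mean 1.18 times that of WT. This difference did not pass the test (log2 fold change 0.24, 95% CI 0.03 to 0.44, adjusted *P* = 0.217, limma).

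*Cd48* encodes the SLAM family protein whose absence from the surface defines the gate. It was counted at 257, 326, and 359 in WT and at 431, 279, and 314 in *Irf1-/-* libraries. The genotypes overlapped, since *Irf1-/-* library 2 was the highest of all 6 and library 3 was the second lowest. The log2 fold change was 0.11 with a CI of −0.36 to 0.58 (adjusted *P* = 0.878), and the sign turned when *Irf1-/-* library 2 (−0.0715) or WT library 2 (−0.0289) was left out.

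*Ly6a* encodes SCA-1, a GPI-anchored protein whose gene is known to respond to interferons. It had 6908, 7439, and 7692 normalized reads in WT libraries and 4974, 6047, and 5376 in *Irf1-/-* libraries. All *Irf1-/-* libraries were lower than any WT library, with a mean at 74.4% of WT, in cells that had all been sorted as positive for the protein. The log2 fold change was −0.43 ± 0.09 SE (CI −0.63 to −0.23, adjusted *P* = 0.0245, limma), which passed the test but not the fold threshold. The test depended on single libraries, since the adjusted *P* was 0.115 without *Irf1-/-* library 2, 0.112 without *Irf1-/-* library 4, and 0.0786 without WT library 3. Genes of the Ly6 family are similar in sequence, and reads shared between them may have been assigned to either or dropped.

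The remaining gene of the positive gate, *Kit*, encodes the stem cell factor receptor and was abundant in all libraries. Its counts ran from 80517 to 84043 in WT and from 77902 to 88715 in *Irf1-/-* HSCs, with a log2 fold change of −0.0092 (CI −0.22 to 0.20, adjusted *P* = 0.981). *Kit* was read in a list of 14 genes of the sorting antibodies, of which 12 were tested. None of these passed by limma (0), 2 had an unadjusted *P* under 0.05, edgeR gave 0, and DESeq2 gave 1. *Itga2b*, the CD41 integrin chain of megakaryocytes and some HSCs, was at 33871, 45662, and 31700 in WT and at 30846, 18422, and 26698 in *Irf1-/-* libraries (log2 fold change −0.56, adjusted *P* = 0.0922). With 1 library left out its log2 fold change ran from −0.72 to −0.35, and it passed without WT library 4 (adjusted *P* = 0.0449). *Eng*, which encodes the TGF-β coreceptor endoglin, was at 11492 to 12537 in WT and at 12605 to 13729 in *Irf1-/-* libraries (0.13, adjusted *P* = 0.517).

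Of the proteins that subdivide HSCs, *Procr* encodes EPCR, which binds protein C and is highest on HSCs with long-term activity. *Procr* was at 4487, 3754, and 4147 in WT libraries 2, 3, and 4 and at 5423, 6456, and 5866 in *Irf1-/-* libraries 2, 3, and 4. The groups were separate, and the *Irf1-/-* mean was 1.43 times the WT mean. *Procr* rose by a log2 fold change of 0.52 ± 0.10 SE (CI 0.31 to 0.73, adjusted *P* = 0.0112, limma), which is below the fold threshold, and it passed the test with any 1 library left out (largest adjusted *P* = 0.0479).

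*Tek* encodes TIE2, the receptor of angiopoietins on endothelial cells and HSCs. Its normalized read counts were 8769, 8532, and 7474 in WT and 10073, 9686, and 10281 in *Irf1-/-* libraries. The *Irf1-/-* libraries were all higher and were close together (SD 302, against 690 in WT). The log2 fold change of 0.28 (CI 0.09 to 0.47) did not pass the test (adjusted *P* = 0.110, limma), but it did after quantile normalization (0.33, adjusted *P* = 0.0247) and with DESeq2 on the recovered reads (0.28, adjusted *P* = 0.0381).

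*Esam*, which encodes an immunoglobulin-like adhesion protein of endothelial junctions and HSCs, was separate between genotypes only narrowly. WT libraries 2, 3, and 4 had 14382, 13650, and 13134 normalized reads, and the *Irf1-/-* libraries had 14490, 16815, and 15853. The highest WT library and the lowest *Irf1-/-* library, both numbered 2, were nearly equal. The log2 fold change was 0.19 (CI 0.01 to 0.38, adjusted *P* = 0.285, limma).

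*Cd34* encodes a sialomucin of progenitors and endothelium. It was at 16728, 15798, and 16779 in WT and at 16506, 21456, and 17471 in *Irf1-/-* libraries. Only *Irf1-/-* library 3 stood clearly above the WT range, while library 2 lay within it. The log2 fold change was 0.16 (CI −0.06 to 0.38, adjusted *P* = 0.495, limma) and was 0.05 without *Irf1-/-* library 3.

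*Cd27*, a TNF receptor family gene expressed on HSCs and multipotent progenitors, and *Thy1*, a GPI-anchored protein gene that is low on HSCs, also overlapped between genotypes. *Cd27* ranged from 7724 to 8313 in WT, and in *Irf1-/-* HSCs it was below this range in library 2 (7241) and above it in libraries 3 and 4 (9300 and 9283). Its log2 fold change was 0.10 (CI −0.12 to 0.32, adjusted *P* = 0.718), and it ran from 0.04 to 0.22 with 1 library left out. *Thy1* had 30.4, 30.4, and 51.6 normalized reads in WT and 24.5, 33.7, and 39.4 in *Irf1-/-* libraries, from 23 to 48 reads per library. At this depth the CI ran from −1.21 to 0.85 around a log2 fold change of −0.18 (adjusted *P* = 0.916), so that a change of either sign within this range could not be told from none. The sign turned without *Irf1-/-* library 2 (0.0052) or WT library 4 (0.0684).

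*Fgd5* encodes an exchange factor for the GTPase CDC42 and is not a surface protein; reporter alleles at its locus are used to mark HSCs. It had 3918, 3818, and 3522 normalized reads in WT libraries 2, 3, and 4 and 6752, 6881, and 6387 in *Irf1-/-* libraries 2, 3, and 4. The gap between the groups was far wider than the spread within either, with means of 3753 ± 206 and 6674 ± 256 (SD, n = 3). *Fgd5* rose 1.78-fold, with a log2 fold change of 0.83 ± 0.09 SE (CI 0.64 to 1.02, adjusted *P* = 9.13e-05, limma). With 1 library left out at a time, the log2 fold change was between 0.79 and 0.86 and the adjusted *P* was at most 0.00155.

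**Figure D2:**
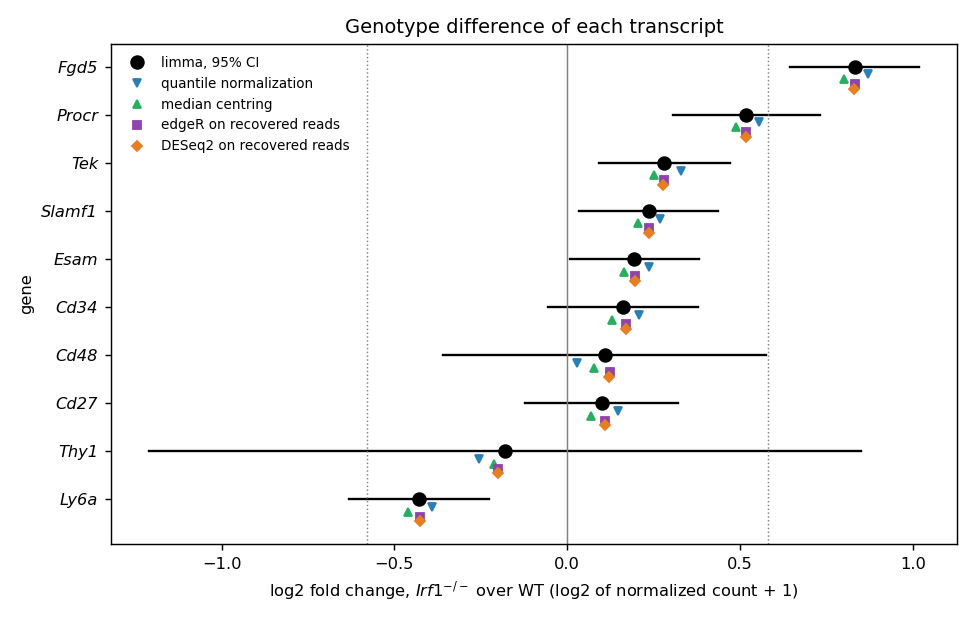
Log2 fold change of each of the 10 transcripts (x axis, *Irf1-/-* over WT, on log2 of the normalized count + 1), with the 95% CI of limma as a bar and the estimates of 4 other settings as small symbols; dotted lines mark a log2 fold change of −0.58 and 0.58. The CIs of *Fgd5* (0.64 to 1.02) and *Thy1* (−1.21 to 0.85) are among the narrow and the wide ones, and no estimate changes sign between the settings drawn.

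Ratios between transcripts of the same library do not depend on how libraries are scaled, and 4 were compared. The log2 ratio of *Ly6a* to *Slamf1* was 1.11, 1.29, and 1.43 in WT libraries and 0.38, 0.83, and 0.63 in *Irf1-/-* libraries. The genotypes were separate, with a difference of −0.67 (exact two-sided permutation *P* = 0.1, the smallest that 3 against 3 libraries can give, and 0.2 after adjustment over the 4 ratios). The log2 ratio of *Cd34* to *Procr* was 1.90, 2.07, and 2.02 in WT and 1.61, 1.73, and 1.57 in *Irf1-/-* libraries, again without overlap (difference −0.36, exact permutation *P* = 0.1, adjusted 0.2). In contrast, the ratio of *Slamf1* to *Cd48*, the pair of SLAM antigens that the gate sets against each other, overlapped between genotypes, with a mean log2 ratio of 3.28 ± 0.33 (SD) in WT and 3.41 ± 0.24 in *Irf1-/-* HSCs (exact permutation *P* = 0.8). The log2 ratio of *Cd34* to *Slamf1* was 2.44 ± 0.10 in WT and 2.36 ± 0.27 in *Irf1-/-* HSCs (exact permutation *P* = 0.8).

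To compare levels between genes, normalized reads were divided by the length of the longest reference transcript. In WT HSCs *Ly6a* was the highest at 8970 ± 488 (SD, n = 3) normalized reads per kilobase, followed by *Esam* (7358 ± 336), *Cd34* (6270 ± 211), and *Cd27* (5121 ± 193). Lower levels per kilobase were measured for *Procr* (2586 ± 230), *Tek* (1774 ± 148), *Slamf1* (1126 ± 65.3), and *Fgd5* (616 ± 33.8). *Cd48*, whose protein is absent by the sort, was at 266 ± 44.3 and *Thy1* at 21.6 ± 7.05. No neighbours in this WT order overlapped between their 3 libraries. In *Irf1-/-* HSCs, *Esam* (8429 ± 627) and *Cd34* (7050 ± 1001) came before *Ly6a* (6674 ± 662), although the ranges of *Esam* and *Cd34* and those of *Cd34* and *Ly6a* overlapped. The order of the other members was the same in both genotypes, and the step from *Slamf1* to *Fgd5* was 1.83-fold in WT and 1.21-fold in *Irf1-/-* HSCs. The order near the top depends on the transcript length used, since with the median length of the annotated transcripts *Esam* (19547) and *Cd27* (9595) came before *Ly6a* in WT HSCs, and *Esam* was the highest in both genotypes.

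**Figure D3:**
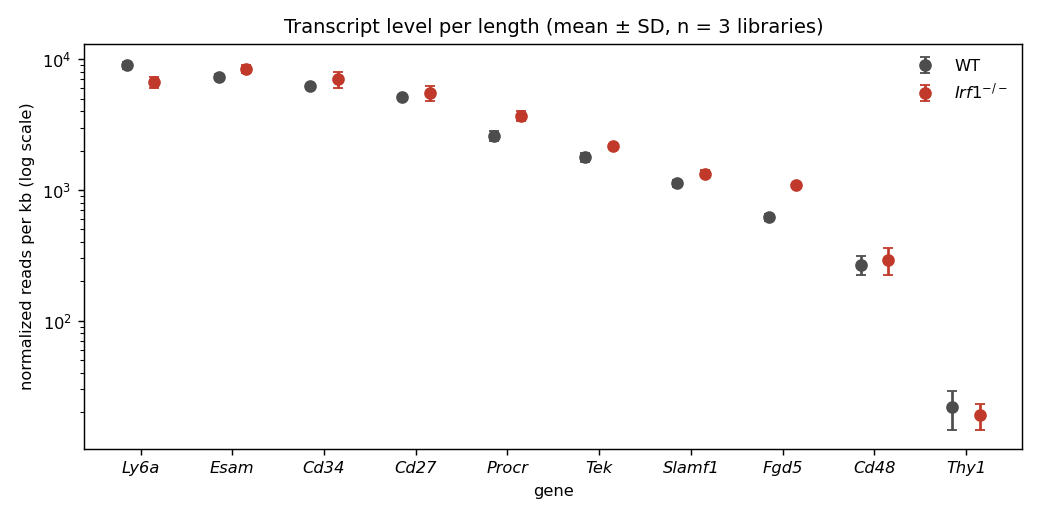
Normalized reads per kilobase of the longest reference transcript (y axis, log scale) for each of the 10 genes (x axis), as mean ± SD of 3 WT and 3 *Irf1-/-* libraries. Levels span from 8970 (*Ly6a*) to 21.6 (*Thy1*) in WT, and with this length the 2 genotypes exchange the order of *Ly6a* and *Esam*, which the median length does not give.

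The members did not vary in the same way within a genotype. The coefficient of variation over the 3 *Irf1-/-* libraries was 3.02% for *Tek* and 3.84% for *Fgd5*, but 14.2% for *Cd34* and 13.8% for *Cd27*. In WT the corresponding values were 8.35%, 5.48%, 3.36%, and 3.77%. The least abundant members, *Cd48* and *Thy1*, varied most, at 23.3% and 23.1% in *Irf1-/-* and 16.7% and 32.6% in WT HSCs. Of the *Irf1-/-* libraries, number 3 had the highest value of 6 members and number 2 the lowest value of 6 members. Of the WT libraries, number 2 was highest for 6 members, whereas number 4 was lowest for 5.

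Families and partners of the members were then examined. Of the other SLAM family genes and the SAP adaptor genes *Sh2d1a* and *Sh2d1b1*, read as 1 list, 8 were tested, 1 fell, and none rose (0), with a median log2 fold change of −0.37 over receptors and adaptors together. This median lies between the values of low genes, *Slamf9* (4.32 to 48.8 normalized reads) and *Sh2d1b1* (3.46 to 19.2). *Cd84*, the most abundant of the list, hardly differed (−0.02, adjusted *P* = 0.962, limma). *Slamf9*, *Sh2d1b1*, and *Cd84* are described here after their values were seen. *Ly9*, named after its values were seen, was higher in every *Irf1-/-* library without passing (0.33, adjusted *P* = 0.202). The gene that fell was *Slamf8*, which encodes a receptor of macrophages, at 165, 186, and 249 normalized reads in WT and at 11.7, 19.9, and 8.30 in *Irf1-/-* libraries. This was 6.65% of the WT mean (−3.87 ± 0.43 SE on the log2 scale, adjusted *P* = 0.000181). The other Ly6 family genes included 9 that were tested, none of which passed by limma (0, with 1 at an unadjusted *P* under 0.05), with a median of −0.26, which is the value of the low gene *Ly6g5b*. In this list 1 passed after quantile normalization, 1 after median centring, and 1 each by edgeR and DESeq2. *Ly6e*, a relative of *Ly6a* that is also induced by interferon, was at 50703, 49623, and 50642 in WT and at 37406, 43357, and 40339 in *Irf1-/-* libraries (log2 fold change −0.32, adjusted *P* = 0.0757). *Ly6c2* was erratic, with 808 normalized reads in WT library 3 and 2.47 in WT library 2, and *Ly6g5b* ranged from 18.1 to 61.8 over all libraries.

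The list of the protein C and thrombin receptor system of *Procr*, which also held the urokinase gene *Plau* (2.08 to 42.3 normalized reads), had 5 tested genes, of which 2 fell and none (0) rose. *F2r*, which encodes the thrombin receptor PAR1, was at 17265, 20780, and 14771 in WT and at 12766, 8811, and 11603 in *Irf1-/-* libraries. It fell by 0.67 on the log2 scale (adjusted *P* = 0.0177, limma) but did not pass without WT library 3 (0.0710) or *Irf1-/-* library 3 (0.0530). *F2rl2*, which encodes PAR3, was at 1646, 2089, and 1350 in WT and at 953, 486, and 1003 in *Irf1-/-* libraries. It fell by 1.11 (adjusted *P* = 0.01997), and the adjusted *P* was 0.0912 without WT library 3. *F2r* and *F2rl2* went in the opposite direction to *Procr* in the same libraries. The other 3 tested genes were fitted higher, and the median of the list was 0.03. The megakaryocyte markers given below were lower too, with sums at 66.0% of WT. Their part in these falls was not tested.

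*Emcn*, an endothelial and HSC sialomucin related to *Cd34*, rose from 1461, 1454, and 1280 in WT to 2011, 2224, and 2016 in *Irf1-/-* libraries. Its log2 fold change of 0.58 ± 0.11 SE was just short of the fold threshold (0.576, adjusted *P* = 0.0101, limma). It passed in each of the 6 fits with 1 library left out, in which the log2 fold change ran from 0.51 to 0.61. *Emcn* was therefore called in some of these fits, and also after quantile normalization (0.59). The other sialomucins, *Podxl* (0.11, adjusted *P* = 0.817) and *Podxl2* (0.56, adjusted *P* = 0.759), did not pass. The list of 3 had a median of 0.56, which is the value of *Podxl2*, a low gene at 9.87 to 59.2 normalized reads. Of the 7 junctional relatives of *Esam*, the scaffold gene *Magi1* counted among them, *Jam2* (0.55, adjusted *P* = 0.0441) and *Jam3* (0.45, adjusted *P* = 0.0355) rose, while *F11r* (−0.04, adjusted *P* = 0.876) was the most abundant. The median was 0.27, which is the value of *Clmp*, a low gene at 21.6 to 66.1 normalized reads, named after its values were seen. *Jam2* and *Jam3* encode junctional adhesion molecules, and both depended on single libraries. *Jam2* passed without *Irf1-/-* library 2 but in none of the other 5 fits with 1 library left out (adjusted *P* up to 0.160). *Jam3* did not pass without WT library 2 or 3 or *Irf1-/-* library 3 or 4 (adjusted *P* = 0.0877, 0.124, 0.0838, and 0.190).

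In the angiopoietin and TIE system of *Tek*, none of 6 tested genes passed by limma, edgeR, or DESeq2 (0, with 2 at an unadjusted *P* under 0.05, and 1 after quantile normalization), with a median log2 fold change of −0.0019. *Angpt1*, the activating ligand of TIE2, was counted from 31263 to 33561 in WT and from 32652 to 34845 in *Irf1-/-* HSCs (0.06, adjusted *P* = 0.804). *Tie1*, an orphan relative of TIE2, was at 16191, 16497, and 15642 in WT and at 17648, 20235, and 19369 in *Irf1-/-* libraries, without overlap (0.24, adjusted *P* = 0.157). *Angptl2*, an angiopoietin-like factor, did not pass either (0.50, adjusted *P* = 0.166).

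For *Cd27*, the ligand gene *Cd70* had at most 1.08 normalized reads in any library. Of the 5 tested genes of the CD27 pathway 1 rose and none (0) fell by limma, with a median of 0.0099. In this list 2 passed after quantile normalization, 2 after median centring, 1 by edgeR, and 2 by DESeq2, and between 0 and 2 passed with 1 library left out. The gene that rose by limma was *Map3k14*, the NF-κB-inducing kinase, named here after its values were seen (0.49, adjusted *P* = 0.0427). Of the 6 fits with 1 library left out it passed only without WT library 4 (adjusted *P* up to 0.178 in the other 5). *Siva1*, a CD27-binding proapoptotic factor, was at 5510, 5565, and 4931 in WT and at 3948, 4677, and 3844 in *Irf1-/-* libraries (−0.36, adjusted *P* = 0.0670). The adaptors *Traf2* (−0.13, adjusted *P* = 0.637) and *Traf3* (0.08, adjusted *P* = 0.804) did not pass.

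The FGD family and *Cdc42* had 6 tested genes besides *Fgd5*, none of which passed by limma, edgeR, or DESeq2 (0, with 1 at an unadjusted *P* under 0.05), with a median of −0.02. *Cdc42*, the target GTPase, was at 33037, 35173, and 31251 in WT and at 29042, 31625, and 28700 in *Irf1-/-* libraries (−0.15, adjusted *P* = 0.440). *Fgd2* was the most abundant relative by count (0.04, adjusted *P* = 0.923), before *Fgd3* (−0.07, adjusted *P* = 0.854) in the mean over all libraries. *Fgd4*, named after its values were seen, was higher in every *Irf1-/-* library without passing (0.30, adjusted *P* = 0.269) and had a slightly higher mean than *Fgd3* there (923 against 901).

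Next, 25 other genes that mark HSCs were read as a background for the members. All 25 were tested, 6 rose, 2 fell, and 17 did not pass, with a median log2 fold change of 0.16. Called higher were *Selp*, *Ifitm1*, and *Sult1a1*, and called lower was *Slc22a3*. *Selp*, the P-selectin gene of endothelium, platelets, and aged HSCs, was at 3266, 3011, and 3621 in WT and at 5350, 5138, and 7382 in *Irf1-/-* libraries (0.84 ± 0.13 SE, adjusted *P* = 0.00251, limma). *Ifitm1*, an interferon-induced transmembrane protein gene, was at 23157, 14626, and 20879 in WT and at 28994, 36671, and 32849 in *Irf1-/-* libraries, so that it was higher where the interferon targets of the label check were lower (0.77 ± 0.14, adjusted *P* = 0.0103).

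*Sult1a1*, a sulfotransferase gene, was at 2481, 3320, and 2599 in WT and at 3859, 4833, and 5821 in *Irf1-/-* libraries (0.78 ± 0.14, adjusted *P* = 0.00908). *Slc22a3*, an organic cation transporter gene, was at 6620, 9105, and 6479 in WT and at 4605, 4586, and 4815 in *Irf1-/-* libraries (−0.65 ± 0.12, adjusted *P* = 0.00855). The genotypes did not overlap for any of these 4 genes that were called, but without WT library 3 the fold threshold was missed by *Ifitm1* (0.57) and *Slc22a3* (−0.49). Passing the test below the fold threshold, and named after their values were seen, were *Cd82* (0.53), *Nkx2-3* (0.43), *Krt18* (0.38), and *Cd9* (−0.46). None of them passed without *Irf1-/-* library 4 (adjusted *P* = 0.0568, 0.0532, 0.171, and 0.0759, limma). Of the 6 fits with 1 library left out, *Nkx2-3* and *Krt18* failed to pass in 5, *Cd82* in 3, and *Cd9* in 1. Over the fits with 1 library left out, between 4 and 9 of the 25 genes passed.

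**Figure D4:**
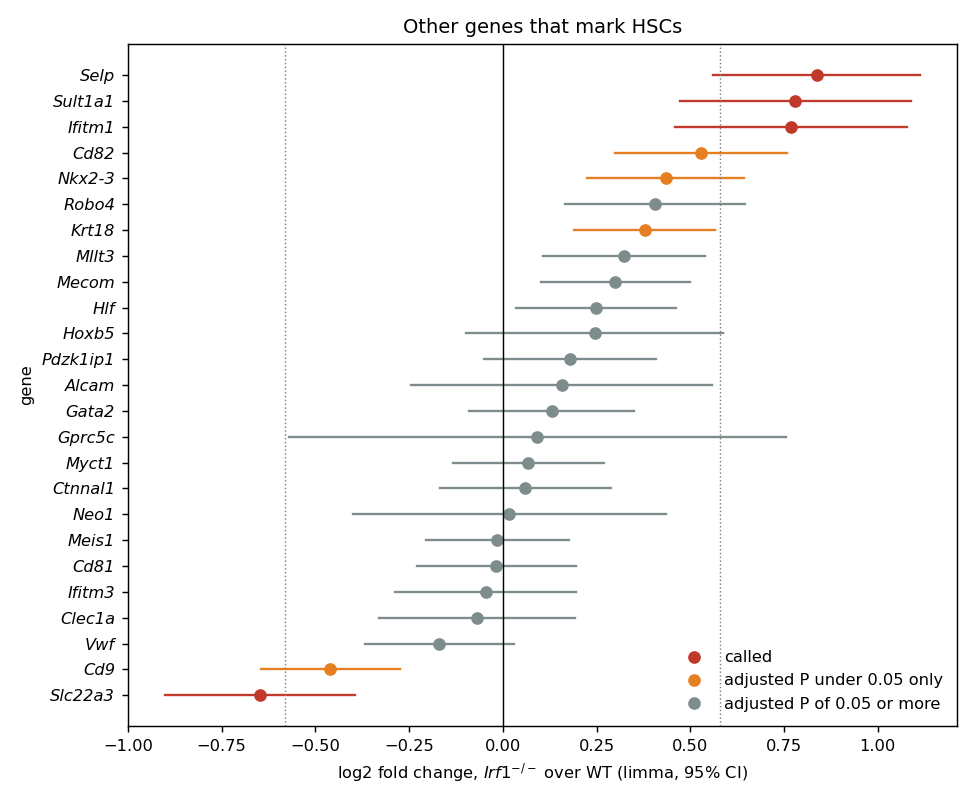
Log2 fold change (x axis, *Irf1-/-* over WT) with the 95% CI of limma for 25 other genes that mark HSCs, colored by whether a gene was called, passed the test alone, or did not pass; dotted lines mark −0.58 and 0.58. *Selp* (0.84) and *Sult1a1* (0.78) lie at the high end, and *Slc22a3* (−0.65) and *Cd9* (−0.46) lie at the low end.

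Genes of multipotent progenitors and early commitment, which HSC gates are meant to leave out, had 17 tested genes, of which 3 rose and 2 fell, with a median of 0.30. *Flt3*, the receptor gene that separates multipotent progenitors from HSCs, was at 2656, 1730, and 2865 in WT and at 3442, 4476, and 3460 in *Irf1-/-* libraries. Its level per kilobase was 612 ± 153 (SD) in WT and 960 ± 150 in *Irf1-/-* HSCs. *Flt3* was called (0.67 ± 0.16 SE, adjusted *P* = 0.0407) but did not pass without WT library 3 (0.117) or without any 1 of the *Irf1-/-* libraries 2, 3, and 4 (0.0922, 0.127, and 0.0747).

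*Cd53*, a tetraspanin gene of leukocytes, was at 631, 349, and 474 in WT and at 1234, 1061, and 964 in *Irf1-/-* libraries (1.20 ± 0.19, adjusted *P* = 0.00372). *Klf1*, an erythroid transcription factor gene, was at 1396, 1290, and 1182 in WT and at 901, 569, and 924 in *Irf1-/-* libraries (−0.72 ± 0.17, adjusted *P* = 0.0361). It did not pass without WT library 2 or 3 (0.117 and 0.109) or *Irf1-/-* library 2 or 3 (0.0583 and 0.0700). *Car1*, the carbonic anhydrase gene of erythroid progenitors, was at 1666, 1062, and 2638 in WT and at 836, 40.6, and 89.3 in *Irf1-/-* libraries. It fell by 3.51 (adjusted *P* = 0.01997), with *Irf1-/-* library 2 far above the other two. The size was unstable, at −4.77 to −2.60 with 1 library left out and −2.48 with edgeR, and *Car1* did not pass with edgeR (0.0875), with DESeq2 (0.198), or without *Irf1-/-* library 3 (0.0603) or 4 (0.0681). The third gene that rose, *Satb1*, named after its values were seen, was at the threshold (0.58, adjusted *P* = 0.04995) and passed in 0 of the 6 fits with 1 library left out.

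Markers of other cells that a gate could let through were summed per library. The 9 endothelial genes had sums of 5806, 5786, and 6695 normalized reads in WT and 7790, 7391, and 8579 in *Irf1-/-* libraries, 130% of WT, in the same direction as *Procr*, *Tek*, and *Esam*. The list was not uniform, since 5 of its tested genes were fitted higher and 3 lower, among the former *Pecam1* (0.32, adjusted *P* = 0.161) and *Kdr* (0.59, adjusted *P* = 0.132), and among the latter *Flt4*, which was lower in every *Irf1-/-* library (−0.85, adjusted *P* = 0.271). *Pecam1* was the most abundant of them and is expressed by HSCs too, and of the 8 tested genes only *Emcn* passed by limma (1, against 2 with DESeq2 and up to 2 with 1 library left out). The defining endothelial gene *Cdh5*, encoding VE-cadherin, was at 4.11 to 29.0 normalized reads and *Lyve1* was at 0 to 4.11 over all 6 libraries, against 7474 or more for *Tek*. The 6 stromal genes summed to 1471, 1470, and 1324 in WT and to 2269, 1833, and 1862 in *Irf1-/-* libraries, most of it *Pdgfrb*. None passed by limma (0, with 2 at an unadjusted *P* under 0.05, and 1 after quantile normalization), 0 by edgeR, and 1 by DESeq2. The part of either cell type in the member differences was not tested.

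The 5 megakaryocyte genes summed to 47319, 60305, and 45164 in WT and to 40363, 24765, and 35754 in *Irf1-/-* libraries (66.0% of WT). *Itga2b* was the most abundant of them. All 5 were fitted lower, 3 of them without overlap, and of the 5 genes 2 fell and none rose (0). *Pf4*, the platelet factor 4 gene, was at 7660, 6788, and 7496 in WT and at 4605, 2337, and 3627 in *Irf1-/-* libraries (−1.11 ± 0.18, adjusted *P* = 0.00334). *Gp1bb*, a platelet glycoprotein gene, was at 2012, 2452, and 1984 in WT and at 1374, 939, and 1167 in *Irf1-/-* libraries (−0.90 ± 0.14, adjusted *P* = 0.00320). The 8 erythroid genes summed to 5370, 4890, and 5633 in WT and to 3760, 2257, and 2821 in *Irf1-/-* libraries, with *Epor* the most abundant and the 4 globin genes listed at 0 in all libraries. The unstable *Car1* made up much of this fall (mean 1788 in WT and 322 in *Irf1-/-* HSCs), and of the 4 tested genes 2 passed by limma, 1 by edgeR, and 1 by DESeq2.

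The 8 myeloid genes summed to 29979, 34662, and 35310 in WT and to 33882, 39878, and 37305 in *Irf1-/-* libraries, most of it *Lyz2*, and 1 rose (*Prtn3*, 0.53, adjusted *P* = 0.0334, but 0.130 without WT library 3, 0.0619 without *Irf1-/-* library 2, and 0.170 without *Irf1-/-* library 4). WT library 4 stood apart in the granulocyte genes *S100a8* (1033, against 13.5 to 110 elsewhere) and *S100a9* (1246, against 10.1 to 131 elsewhere). Without that library the same number of members passed (3), with *Fgd5* at 0.79, *Procr* at 0.52, and *Ly6a* at −0.40. Sums of the 5 B cell genes ran from 2635 to 3054 and were mostly *Cd79b*. Sums of the 6 T cell genes ran from 4406 to 5380 and were mostly *Lat*, with *Cd3e* at 0 to 7.89. Sums of the 6 NK cell genes ran from 2683 to 3731 and were mostly *Nkg7*, with *Gzma* at 0 in all libraries. None of the B, T, or NK cell genes passed by limma (0, with 1 NK cell gene at an unadjusted *P* under 0.05, 0 by edgeR, and 1 NK cell gene by DESeq2).

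Of the 20 proliferation genes read, all 20 had a negative log2 fold change, with a median of −0.50, and 5 passed the test. Their sums were 260997, 288173, and 208497 in WT and 191364, 198973, and 161670 in *Irf1-/-* libraries, with *Mcm6* the most abundant. The called ones were *Top2a* (−0.77 ± 0.16 SE, adjusted *P* = 0.0177), *Mki67* (−0.67 ± 0.17, adjusted *P* = 0.0427), and *Aurkb* (−0.63 ± 0.15, adjusted *P* = 0.0368), which encode a topoisomerase, the Ki-67 antigen, and a mitotic kinase. The number passing depended strongly on the libraries, being 0 without WT library 2, WT library 3, or *Irf1-/-* library 4, 2 without *Irf1-/-* library 2, 6 without *Irf1-/-* library 3, and 17 without WT library 4. The part of cell cycle in the member differences was not tested.

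The 5 tested genes most like *Fgd5* over the 6 libraries, by Pearson correlation of log2 values, were *Ctsh*, *Nfil3*, *Gpbp1l1*, *Gstt3*, and *Tnks2* (*r* between 0.993 and 0.996, as a description that the genotype difference itself creates). *Ctsh*, a lysosomal protease gene, was at 877, 903, and 850 in WT and at 1469, 1436, and 1378 in *Irf1-/-* libraries (0.70 ± 0.11 SE, adjusted *P* = 0.00361). *Nfil3*, a basic leucine zipper factor gene, was at 249, 237, and 235 in WT and at 448, 431, and 409 in *Irf1-/-* libraries (0.84 ± 0.18, adjusted *P* = 0.0217), and with 1 library left out it passed only without WT library 4 (adjusted *P* up to 0.0888 in the other 5 fits). The remaining ones had a like pattern with smaller steps and did not pass by limma: *Gpbp1l1* (0.16, adjusted *P* = 0.488), *Gstt3* (0.29, adjusted *P* = 0.117), and *Tnks2* (0.20, adjusted *P* = 0.225). Of these, *Gstt3* passed with DESeq2 (adjusted *P* = 0.0376) and *Tnks2* after quantile normalization (0.0448).

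Promoters of the members were read from RefSeq (GRCm38.p6), as windows from 250 bases before to 50 bases after the annotated start. Of the 10 members 7 matched (*Slamf1*, *Cd48*, *Cd34*, *Procr*, *Tek*, *Fgd5*, and *Cd27*), and *Ly6a*, *Esam*, and *Thy1* did not. The core of interferon response elements, GAAANNGAA, and the core of STAT elements, TTCNNNGAA, were searched on both strands; these letters were in none (0) of the 7 windows, against 8.56% and 8.30% of all 32851 promoters. The members that rose, *Fgd5* and *Procr*, had 71.6% and 61.6% G and C in the 250 bases before the start, against 46.0% to 56.0% in the other 5 and a median of 52.4% over all promoters. The quartiles over all promoters were 45.2% and 61.2%, so that *Procr* was only just above the upper one. This reading of G and C was not planned, and its relation to the rise was not tested. More motifs, also not planned, were then searched with the files in hand, and the GC box was the last of them, chosen after the sequences were seen. The GATA core AGATAA was in 1 of the 7 windows (*Tek*; 11.2% of all promoters), and the ETS core CCGGAA was in 1 (*Cd48*; 14.9%). The GC box GGGCGG occurred 5 times in the *Fgd5* window (4 on the gene's strand and 1 on the other) and in none of the other windows, against 35.7% of all promoters with at least 1 match. The 250 bases before the start of the members that rose are shown 5′ to 3′ on the plus strand, *Fgd5* at chr6:91978715-91978964 and *Procr* at chr2:155750967-155751216, with GC boxes in capitals. A match is a description of letters and not of a bound site.
Fgd5: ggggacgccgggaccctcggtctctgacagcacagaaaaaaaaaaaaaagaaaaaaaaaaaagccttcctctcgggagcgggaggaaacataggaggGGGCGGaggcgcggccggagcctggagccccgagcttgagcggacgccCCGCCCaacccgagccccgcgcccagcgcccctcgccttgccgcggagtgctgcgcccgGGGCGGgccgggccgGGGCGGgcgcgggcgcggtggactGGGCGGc
Procr: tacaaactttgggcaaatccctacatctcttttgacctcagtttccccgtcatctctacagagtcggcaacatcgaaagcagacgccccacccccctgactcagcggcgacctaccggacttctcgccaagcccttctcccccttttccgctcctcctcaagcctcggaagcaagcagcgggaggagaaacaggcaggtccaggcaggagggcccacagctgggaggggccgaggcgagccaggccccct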

How the data were processed

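RNA-seq libraries of sorted HSCs (SMART-Seq v4, Nextera XT) from 3 WT and 3 *Irf1-/-* mice were grouped by their labels. The authors deposited a normalized signal, in which each gene's count is divided by the size factor of its library. The submitters' processing notes and the study's methods name Trim Galore and HISAT2, the notes the mm39 build, and the methods Htseq-count; versions, annotation, and strand use are not given in the sources used here, and the kit does not mark strand, so reads of *Cd34*, *Ly6a*, and *Cd27* cannot be told apart from those of the long noncoding genes that overlap them. All values (100%, within 0.02 reads) corresponded to whole reads, which were recovered. Within a genotype, libraries differed beyond counting error (chi-square over genes, 16.0 to 30.0 per gene).

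Genotypes were compared with limma 3.58.1 (lmFit, eBayes with trend) in R 4.3.3 on log2(normalized count + 1), over the 17404 genes with a mean of at least 10, with Benjamini-Hochberg adjustment over all of them; the log2 fold change understates the change of low genes. Genes were called at thresholds of 0.05 for the adjusted *P* and 0.58 for the size of the log2 fold change. The fit was tested on simulated data. Ratios within a library were compared with exact permutation tests (SciPy 1.17.1). Alternatives were other pseudocounts (0.5 and 5), filters (none, or a mean of at least 50), no trend, quantile normalization, median centring, edgeR 4.0.16 and DESeq2 1.42.0 on recovered reads, a replicate block, each library left out, and the median transcript length. Lengths came from the GENCODE vM1 transcripts, and coordinates from RefSeq (GRCm38.p6); both builds differ from that of the reads.

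The genes named were the members, *Irf1*, every called gene of the lists, up to 3 of the most abundant tested genes of a list without a called gene, and the 5 genes most like *Fgd5*; exceptions are stated. The members and lists were chosen with earlier results of these data known, so no list was tested as a set. Genes taken out of 3 lists after the values were seen, but not because of them (other genes that mark HSCs, B cell, and megakaryocyte) are not reported here, and the numbers of those lists are for the genes that remain.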

Additional observations from a re-analysis of the deposited data

How the results depend on the processing

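The directions of *Fgd5*, *Procr*, *Ly6a*, *Tek*, *Slamf1*, *Esam*, *Cd34*, and *Cd27* held under every alternative run. Without the variance trend, *Fgd5* (log2 fold change 0.83, adjusted *P* = 0.0511), *Procr* (0.52, adjusted *P* = 0.227), and *Ly6a* (−0.43, adjusted *P* = 0.262) no longer passed, so that 0 members passed and 0 were called; 40 genes were called in all, against 333. *Tek* passed after quantile normalization (0.33) and with DESeq2 (0.28), so that 4 members passed. The number of members without overlap was 7 after quantile normalization and 6 after median centring. edgeR called 323 genes and DESeq2 504. Of the 20 proliferation genes, 5 passed, against 0 without the trend, 7 with edgeR, 10 after quantile normalization, 13 after median centring, 18 with DESeq2, and 20 with the replicate block. *Thy1* was not tested at a mean of at least 50 and had no adjusted *P* from DESeq2. The cause of these differences was not tested.

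With 1 library left out, between 1 and 2 members were called, between 2 and 3 passed, and between 204 and 569 genes were called in all. The log2 fold change ran from −0.50 to −0.36 for *Ly6a*, from 0.45 to 0.58 for *Procr*, from −0.0715 to 0.24 for *Cd48*, from −0.33 to 0.0684 for *Thy1*, from 0.79 to 0.86 for *Fgd5*, and from 0.21 to 0.33 for *Tek*. The difference in log2 ratio ran from −0.0214 to 0.30 for *Slamf1* to *Cd48*, from −0.22 to 0.0509 for *Cd34* to *Slamf1*, from −0.77 to −0.55 for *Ly6a* to *Slamf1*, and from −0.41 to −0.32 for *Cd34* to *Procr*. Fits with fewer libraries have less power.

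With the replicate block, 1 member was called, 3 passed, and 415 genes were called in all, with *Tek* at an adjusted *P* of 0.0552 and *Ly6a* at 0.00866. The libraries share only a number: deviations from the genotype mean correlated at −0.09, 0.25, and 0.15 for numbers 2, 3, and 4, and not every library correlated best with its own number.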
